A study of Mus musculus with 16 samples.

Results

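The genes described here are the subunits of the hypoxia-inducible transcription factor HIF1, the genes of the proteins that sense oxygen and degrade HIF1, and a set of its established target genes, measured in mouse Th17 cells that differed in pyruvate dehydrogenase (PDH) and in acetate supply. The 10 members were taken by gene symbol from a list, with glycolytic targets left out. No rule on their values set the choice, but the list was made with earlier results of these data known. They are Hif1a and Arnt (the 2 subunits), Vhl, Egln1 and Egln3 (oxygen sensing and degradation), and Bnip3, Bnip3l, P4ha1, Vegfa and Ankrd37 (targets). All 10 were found among the 15571 genes of the count table, and all 10 were among the 14985 genes tested.

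The study crossed a T cell deletion of PDH with sodium acetate, which cells can turn into acetyl-CoA without that enzyme. There were 4 groups of 4 RNA-seq libraries. KO acetate cells were Th17 cells from PDHfl/fl CD4 Cre+ mice that had 10 mM sodium acetate in the culture. WT acetate cells came from PDHfl/fl mice and had the same acetate. KO untreated and WT untreated cells were of the same 2 genotypes without added acetate. Both genotypes thus carried loxP-flanked alleles, and CD4-Cre acts from the stage in thymic development at which CD4 is expressed, so deletion precedes the culture. All cells began as naive CD4 T cells, purified with magnetic beads from spleen and lymph nodes. For 3 days they were held on plate-bound anti-CD3 (5 µg/mL) with anti-CD28 (1 µg/mL), IL-6 (30 ng/mL), TGFβ (2 ng/mL) and anti-IFNγ (5 µg/mL). No group had sodium without acetate or Cre without the floxed allele, so those effects cannot be told apart from the ones reported. The labels give neither the age of the mice nor an oxygen level, nor whether libraries of a group came from separate mice, and all p-values below therefore rest on library-to-library spread, which may be technical.

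HIF1 is a pair of proteins, HIF1α (from Hif1a) and ARNT. When oxygen is plentiful, the prolyl hydroxylases EGLN1 and EGLN3 mark HIF1α, and the VHL ubiquitin ligase recognises the mark and sends HIF1α to the proteasome. When oxygen is short, HIF1α escapes, joins ARNT and binds short DNA elements with the core ACGTG or GCGTG near its targets, Egln1 and Egln3 among them. Activated T cells also make HIF1α in ample oxygen, through mTOR, STAT3 and NF-κB, and in mouse Th17 cells HIF1α is known to promote glycolysis and the IL-17 programme. Most of this control acts on protein, so the mRNA levels below measure neither HIF1α protein nor its activity.

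Because HIF1 acts through the ACGTG core, the 250 bases before the start of 5 genes are shown, written 5′ to 3′ on the gene's own strand, with every ACGTG or its reverse complement CACGT in capitals. The windows are RefSeq's, in build GRCm38.p6. Hif1a (chr12:73907617-73907866, plus strand), Bnip3 (chr7:138909507-138909756, minus strand), Egln3 (chr12:54203875-54204124, minus strand) and P4ha1 (chr10:59323046-59323295, plus strand) are the 4 genes with a window whose acetate response differed between genotypes in the test given below. Vegfa (chr17:46032378-46032627, minus strand) is shown as one that did not pass it and has no such core. Egln1 and Ankrd37 did not pass it either, and their windows do hold the core (1 and 2 sites).
Hif1a: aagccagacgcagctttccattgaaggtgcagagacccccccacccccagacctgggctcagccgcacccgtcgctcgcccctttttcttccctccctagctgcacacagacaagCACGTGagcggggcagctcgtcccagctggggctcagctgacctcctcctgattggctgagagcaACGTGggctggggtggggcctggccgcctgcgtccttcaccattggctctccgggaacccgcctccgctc
Bnip3: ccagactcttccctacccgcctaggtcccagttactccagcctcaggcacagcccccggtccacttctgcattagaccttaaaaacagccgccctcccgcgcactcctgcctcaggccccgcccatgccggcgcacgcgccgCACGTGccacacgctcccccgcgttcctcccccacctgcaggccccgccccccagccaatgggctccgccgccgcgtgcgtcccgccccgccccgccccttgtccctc
Egln3: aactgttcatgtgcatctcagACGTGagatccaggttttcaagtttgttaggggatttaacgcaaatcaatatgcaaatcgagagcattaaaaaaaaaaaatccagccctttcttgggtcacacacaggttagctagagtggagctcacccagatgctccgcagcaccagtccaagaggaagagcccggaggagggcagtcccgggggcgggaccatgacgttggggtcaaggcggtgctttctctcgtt
P4ha1: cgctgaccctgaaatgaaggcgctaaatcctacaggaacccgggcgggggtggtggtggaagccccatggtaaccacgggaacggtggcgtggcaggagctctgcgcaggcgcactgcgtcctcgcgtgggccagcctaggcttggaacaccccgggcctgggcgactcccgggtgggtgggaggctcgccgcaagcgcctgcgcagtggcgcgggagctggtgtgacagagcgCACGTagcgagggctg
Vegfa: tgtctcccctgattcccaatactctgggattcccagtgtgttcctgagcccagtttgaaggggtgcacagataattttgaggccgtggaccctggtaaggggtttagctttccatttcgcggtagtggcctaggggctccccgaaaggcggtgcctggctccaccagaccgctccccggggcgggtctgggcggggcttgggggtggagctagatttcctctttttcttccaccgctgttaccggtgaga
In Hif1a a CACGTG, which reads the same on both strands and is also the canonical E-box of MYC-type factors, begins 135 bases before the start, and an ACGTG begins 70 bases before it. Bnip3 has 1 CACGTG, 108 bases before the start. Egln3 has its core 229 bases before the start and P4ha1 has it 16 bases before. The Vegfa window shown has none, while a second Vegfa window, at an internal start, has 1. Windows were given for 9 of the 10 genes, without Bnip3l, and 7 of these 9 genes had ACGTG on either strand in at least 1 window, the other two being Arnt and Vhl. The second form of the core, GCGTG, was found on either strand 3 times in Bnip3, 2 times each in P4ha1 and Ankrd37, and 1 time each in Arnt, Egln1 and the second Vegfa window. Counted by window, 7 of the 10 windows of these genes held ACGTG or CACGT. Of all 32851 mouse windows of this length 16.6% contain ACGTG or CACGT, 28.2% contain GCGTG or its complement and 6.02% contain CACGTG. These shares are per window, and no share per gene was computed. These matches describe letters in a window and do not show that HIF1 bound there.

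Library totals lay between 24.57 and 33.72 M estimated counts, which put between 70 and 206 counts per library on Ankrd37, the lowest of the set, and between 7922 and 28230 on Hif1a, the highest. In 4 libraries (KO acetate 2, KO untreated 1 and 2 and WT untreated 1) a single gene without a name took over 3% of counts, against a range of 0.267% to 9.14% over all libraries. Levels are given as CPM, counts scaled to library size with TMM factors. Whole-gene Pdha1 was at 232.2 to 262.4 CPM in KO acetate, 250.4 to 273.0 CPM in WT acetate, 209.6 to 235.5 CPM in KO untreated and 234.4 to 263.4 CPM in WT untreated libraries. The labels do not say which PDH gene or exons were deleted, so this does not check the genotype. The sample titles spell the allele PHD, which is also an abbreviation for the EGLN proteins, while the protocols spell it PDH; the protocols were followed. T cell markers (Cd3e, Cd3g and Cd4 summed) were at 632.1 to 682.0 CPM in KO acetate, 694.1 to 744.4 CPM in WT acetate, 632.0 to 699.8 CPM in KO untreated and 769.9 to 834.1 CPM in WT untreated libraries. The 2 CD8 markers (Cd8a and Cd8b1) summed to 13.7 to 18.2 CPM in KO acetate, 13.1 to 17.2 CPM in WT acetate, 5.13 to 8.35 CPM in KO untreated and 9.08 to 11.2 CPM in WT untreated libraries, and neither was at 0. They were lowest in KO untreated cells, as Hif1a was, and their part in the results was not tested. The 3 B cell markers summed to at most 2.43 CPM and the 2 tested myeloid markers to at most 3.44 CPM in any library. Another myeloid marker in the table did not pass the count filter and is not in that sum. Hif1a and Bnip3 overlap annotated antisense genes and Ankrd37 overlaps neighbours on the opposite strand, and Vhl and Bnip3l have pseudogene copies. How the counting treated strand and shared reads is not known from the labels, so those counts may hold reads of both.

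**Figure D1:**
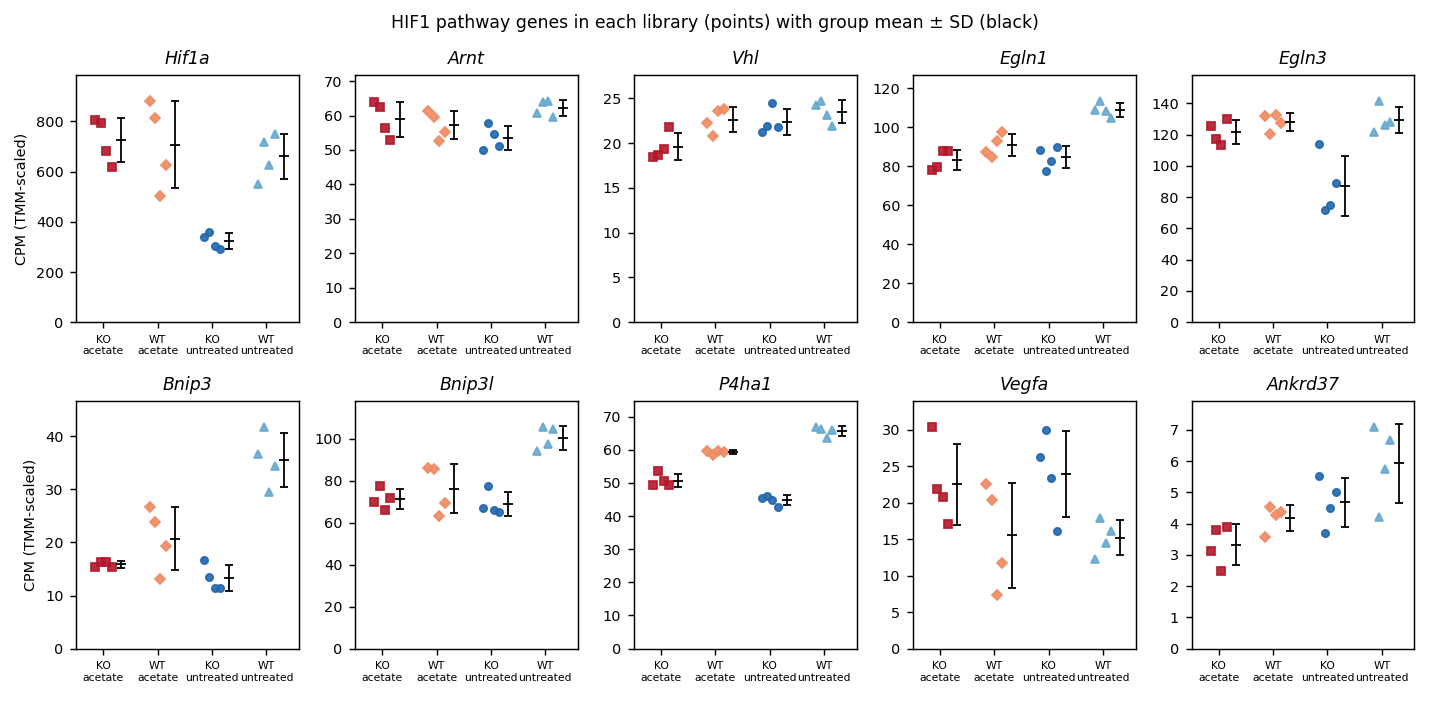
CPM of each of the 10 genes in each of the 16 libraries (points, replicates 1 to 4 from left to right within a group), with the group mean and SD in black (n = 4). KO untreated libraries are lowest for Hif1a (291.2 to 358.4 CPM), while for Bnip3, Bnip3l, Egln1 and P4ha1 the WT untreated libraries stand above all others.

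Without acetate, the comparison of KO with WT cells asks how loss of PDH moved these genes. Of the 10 genes 7 were lower in KO untreated than in WT untreated cells and none was higher, as judged by edgeR at a Benjamini-Hochberg adjusted p under 0.05, the rule for every call below. The 7 were Hif1a, Arnt, Egln1, Egln3, Bnip3, Bnip3l and P4ha1, with Bnip3 2.68-fold and Hif1a 2.04-fold lower. No gene of the set was higher at an unadjusted p under 0.05 (0 genes) or by DESeq2 (0 genes). Over all genes 36.6% were called in either direction, and 18.6% (2782 genes) were lower, against 18.0% (2699 genes) higher. With library totals as the only scaling these were 3217 lower and 1914 higher. For each of the 7, every KO library was below every WT library, a separation shown in one direction or the other by 36.0% of all genes. The median log2 difference was −0.45 over the 10 genes and 0.01 over all genes tested. In bulk RNA, fewer cells of a type and less RNA per cell cannot be told apart.

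With acetate in both genotypes, 1 of the 10 genes, P4ha1, differed between KO acetate and WT acetate cells, and it was lower in KO cells. Over all genes 1.0% were called. P4ha1 was also the only one of the 10 whose libraries did not overlap there, as was so for 9.36% of all genes. At an unadjusted p under 0.05, 3 genes of the set were lower and 0 were higher, and DESeq2 called 1 lower and 0 higher.

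In KO cells acetate raised Hif1a, Egln3 and P4ha1 and lowered Vhl and Ankrd37, so that 5 of the 10 genes were called, against 43.7% of all genes, 22.1% higher and 21.6% lower. For Hif1a and P4ha1 the libraries did not overlap, as for 37.7% of all genes. All genes split into 3314 higher and 3236 lower, or 4229 and 2085 with library totals as the only scaling. Bnip3, Bnip3l, Egln1, Arnt and Vegfa did not pass in this comparison. In WT cells acetate lowered 4 of the 10 genes, Egln1, Bnip3, Bnip3l and P4ha1, against 15.4% of all genes called, 7.89% higher and 7.55% lower (1183 higher and 1132 lower, or 1196 and 558 with library totals). For these 4 the libraries did not overlap, as for 21.3% of all genes. None of the set was called higher, with 0 at an unadjusted p under 0.05 and 0 by DESeq2.

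Subtracting the WT response to acetate from the KO response gives the interaction of the 2 factors. It was positive and past the threshold for 5 of the 10 genes, Hif1a, Bnip3, P4ha1, Bnip3l and Egln3, against 11.9% of all genes called, 6.37% positive and 5.54% negative (955 positive and 830 negative, or 939 and 442 with library totals). No gene of the set had a negative interaction past the threshold, with 0 at an unadjusted p under 0.05 and 0 by DESeq2. Set against WT untreated cells, KO acetate cells were lower in 6 of the 10 genes (Vhl, Egln1, Bnip3, Bnip3l, P4ha1 and Ankrd37) and higher in none, with 0 higher at an unadjusted p under 0.05 and 0 by DESeq2, and 26.4% of all genes were called, 12.9% higher and 13.5% lower (1935 higher and 2019 lower, or 1911 and 1254 with library totals). The libraries of those 6 did not overlap, as for 28.4% of all genes. Hif1a, Arnt, Egln3 and Vegfa did not pass there. These comparisons share groups with one another and are not independent.

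**Figure D2:**
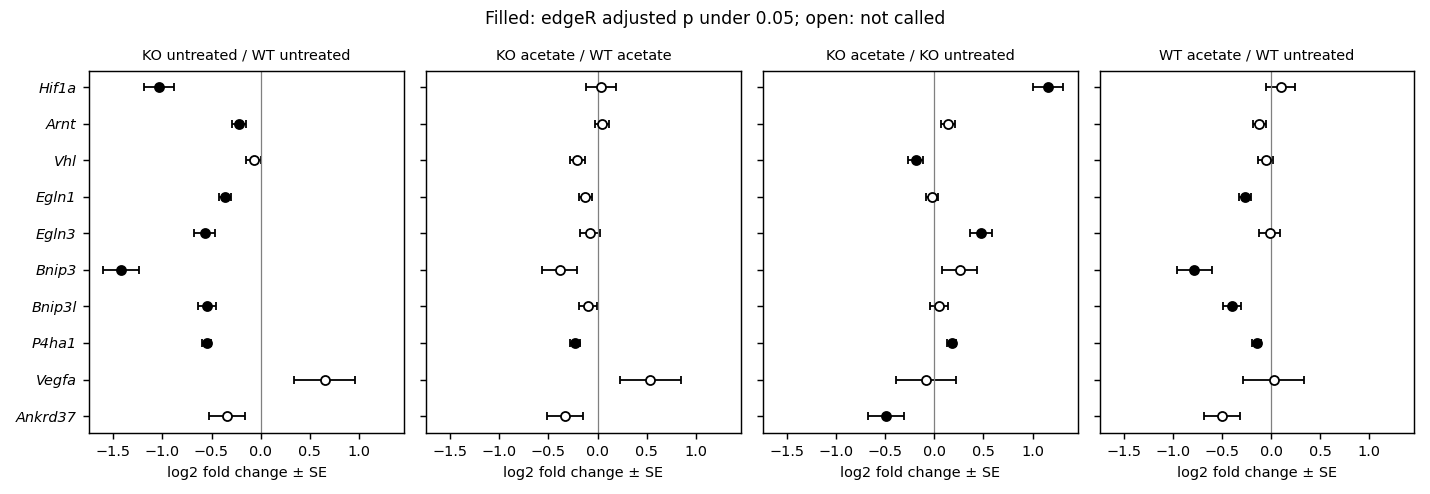
Log2 fold changes of the 10 genes with their standard errors in 4 comparisons, filled where the edgeR adjusted p was under 0.05 and open otherwise. KO untreated against WT untreated has 7 filled points, all below 0, while KO acetate against WT acetate has 1, P4ha1 at −0.23.

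Hif1a encodes the oxygen-controlled subunit. Libraries 1 to 4 of KO acetate had 805.1, 793.5, 683.7 and 619.8 CPM of Hif1a, those of WT acetate 880.7, 814.5, 503.9 and 627.5 CPM, those of KO untreated 340.3, 358.4, 304.8 and 291.2 CPM and those of WT untreated 549.5, 716.5, 627.0 and 747.9 CPM. All 4 KO untreated libraries were thus below all 12 others, which overlapped one another. Hif1a averaged 323.7 ± 31.1 CPM in KO untreated and 660.2 ± 89.9 CPM in WT untreated cells (SD, n = 4 each), a log2 fold change of −1.03 (SE 0.152, adjusted p = 8.98e-05). Acetate raised it in KO cells, to 725.5 ± 89.2 CPM in KO acetate, against that 323.7 CPM in KO untreated (log2 fold change 1.16, SE 0.152, adjusted p = 1.55e-05). In WT cells acetate gave 706.6 ± 172.5 CPM (log2 fold change 0.10 against WT untreated, SE 0.15, adjusted p = 0.732), a change smaller than the spread between WT acetate libraries. The 2 acetate effects differed by 1.07 on the log2 scale (SE 0.213, adjusted p = 0.00473). KO acetate and WT acetate cells differed by 0.04 (SE 0.15, adjusted p = 0.925). The calls of KO untreated against WT untreated, of KO acetate against KO untreated and of the interaction held under every alternative run, 26 for each comparison and 25 for the interaction, which lay between 0.81 and 1.39.

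Arnt encodes the constant partner subunit. It was at 53.0 to 63.9 CPM in KO acetate, 52.6 to 61.4 CPM in WT acetate, 50.1 to 57.7 CPM in KO untreated and 59.7 to 64.2 CPM in WT untreated libraries. Without acetate the KO libraries lay below the WT ones, by 0.22 on the log2 scale (−0.22, SE 0.0698, adjusted p = 0.0201). This Arnt call was lost without KO untreated 1 (−0.19, adjusted p = 0.0602), WT untreated 2 (−0.21, adjusted p = 0.0509), WT untreated 3 (−0.20, adjusted p = 0.0533) or the 4 libraries with over 3% on the unnamed gene (−0.25, adjusted p = 0.0613). No other comparison of Arnt passed. Without KO acetate 4, however, the acetate effect in KO cells (0.14, adjusted p = 0.108) became 0.19 (adjusted p = 0.0331) and the interaction (0.26, adjusted p = 0.093) became 0.31 (adjusted p = 0.038). The acetate effect in KO cells also passed with library totals as the only scaling (0.24, adjusted p = 0.0289), and the interaction without WT acetate 1 and 2 (0.35, adjusted p = 0.0426).

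**Figure D3:**
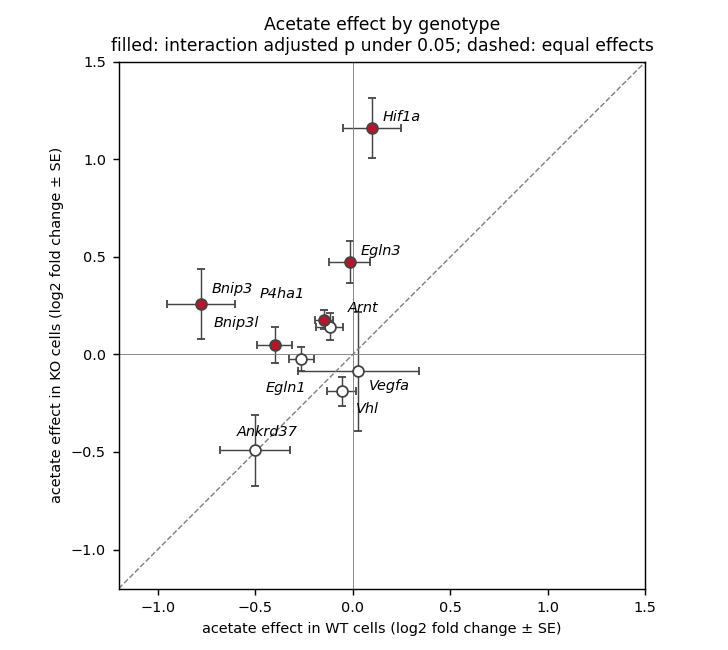
Log2 fold change with acetate in KO cells (vertical axis) against that in WT cells (horizontal axis) for the 10 genes, with standard errors; filled points have an interaction past the threshold and the dashed line marks equal effects. Hif1a and Egln3 lie high on the vertical axis near 0 on the horizontal one (0.10 and −0.02 in WT cells), while Bnip3, Bnip3l and P4ha1 lie left of 0.

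Among the genes of oxygen sensing and HIF1α degradation, both prolyl hydroxylase genes were lower in KO than in WT cells without acetate, and with acetate Egln1 fell in WT cells and Egln3 rose in KO cells. Egln1 encodes the main HIF hydroxylase. Its 4 libraries stood at 78.1, 79.5, 88.0 and 87.8 CPM in KO acetate, 87.4, 85.0, 93.0 and 97.7 CPM in WT acetate, 88.6, 77.6, 82.7 and 90.0 in KO untreated and 109.1, 113.5, 108.5 and 104.6 CPM in WT untreated cells. The WT untreated libraries stood above all 12 others, among which the groups overlapped. Egln1 was lower in KO untreated than in WT untreated cells (log2 fold change −0.36, SE 0.0628, adjusted p = 0.000213) and lower in WT acetate than in WT untreated cells (−0.26, SE 0.0627, adjusted p = 0.00791). The second Egln1 call was lost with library totals as the only scaling (−0.22, adjusted p = 0.0594). In KO cells acetate left it within the spread (−0.02, adjusted p = 0.79), and the interaction of 0.24 missed the threshold (SE 0.0888, adjusted p = 0.0864).

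Egln3 encodes a hydroxylase whose gene is itself strongly induced by HIF1. It stood at 125.5, 117.1, 113.0 and 129.8 CPM in KO acetate, 132.0, 120.1, 132.5 and 127.1 CPM in WT acetate, 113.7, 71.7, 74.7 and 89.2 in KO untreated and 121.7, 141.4, 126.1 and 128.2 CPM in WT untreated libraries. KO untreated cells were lowest, although their first library reached into the KO acetate range. The group means were 87.3 ± 19.2 CPM in KO untreated and 129.3 ± 8.47 CPM in WT untreated cells (log2 fold change −0.57, SE 0.107, adjusted p = 0.000535). Acetate raised Egln3 in KO cells (0.48, SE 0.107, adjusted p = 0.00153), to 121.4 ± 7.67 CPM in KO acetate cells, and gave −0.02 (SE 0.106, adjusted p = 0.948) in WT cells. The interaction of 0.49 (SE 0.15, adjusted p = 0.0411) was lost when any 1 library other than KO untreated 1 was left out (0.40 to 0.53, adjusted p = 0.0503 to 0.0967).

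Vhl, the gene of the substrate-recognition part of the ligase, was at 18.5 to 21.8 CPM in KO acetate, 20.8 to 23.8 CPM in WT acetate, 21.3 to 24.5 CPM in KO untreated and 21.9 to 24.7 CPM in WT untreated libraries. Without acetate the KO and WT libraries overlapped (log2 fold change −0.07, adjusted p = 0.476). With acetate Vhl fell by 0.19 in KO cells (−0.19, SE 0.0741, adjusted p = 0.0446), with 3 of 4 KO acetate libraries below all KO untreated ones. That Vhl call was lost without any one of KO acetate 1, 2 or 3, WT acetate 1, 3 or 4, KO untreated 2, 3 or 4 or WT untreated 1, 2 or 3 (−0.21 to −0.15), and was −0.09 (adjusted p = 0.472) with library totals as the only scaling. Leaving out the 4 high-share libraries gave −0.23 (adjusted p = 0.102). Against WT untreated cells KO acetate cells were lower by 0.26 with no overlap (−0.26, SE 0.0738, adjusted p = 0.0138), which was lost with library totals as the only scaling (−0.21, adjusted p = 0.0979) and without the 4 high-share libraries (−0.24, adjusted p = 0.0829).

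Of the targets, Bnip3, Bnip3l and P4ha1 shared an order of group means, with WT untreated highest, WT acetate next, KO acetate below that and KO untreated lowest. Bnip3 encodes a mitochondrial outer membrane protein that drives mitophagy and cell death in hypoxia. Its libraries stood at 15.4, 16.4, 16.3 and 15.3 CPM in KO acetate, 26.6, 23.8, 13.1 and 19.4 CPM in WT acetate, 16.6, 13.5, 11.4 and 11.5 in KO untreated and 36.6, 41.7, 29.5 and 34.4 CPM in WT untreated cells. All WT untreated libraries were above the 12 others, and the WT acetate libraries spread from the level of the KO libraries to above it. Bnip3 averaged 13.3 ± 2.44 CPM in KO untreated and 35.6 ± 5.07 CPM in WT untreated cells (log2 fold change −1.42, SE 0.179, adjusted p = 2.14e-05). In WT cells acetate lowered Bnip3 to 20.7 ± 5.9 CPM (−0.78, SE 0.174, adjusted p = 0.00675), while in KO cells it was at 15.9 ± 0.611 CPM with acetate (0.26, SE 0.18, adjusted p = 0.266). The interaction was 1.04 (SE 0.25, adjusted p = 0.0143). Neither neighbouring pair in the order that involves KO acetate differed by the test, since KO acetate against WT acetate was −0.39 (SE 0.177, adjusted p = 0.258). KO acetate cells were nevertheless below WT untreated cells (−1.17, SE 0.176, adjusted p = 0.000258), at a Hif1a level that did not differ from theirs by the test (0.14, adjusted p = 0.545). These calls of Bnip3 held under every alternative run.

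Since Hif1a and Bnip3 took separate courses with acetate, the counts of Bnip3 were also set against those of Hif1a within each library. Per 100 Hif1a counts there were 2.21 ± 0.259 Bnip3 counts in KO acetate, 2.91 ± 0.217 in WT acetate, 4.08 ± 0.535 in KO untreated and 5.45 ± 0.983 in WT untreated libraries (SD, n = 4 each). Acetate libraries, at 1.91 to 3.09, were thus below untreated libraries, at 3.74 to 6.66, in both genotypes. The ratio fell in different ways. In KO cells Hif1a rose (1.16) and Bnip3 did not pass (0.26), while in WT cells Bnip3 fell (−0.78) and Hif1a did not pass (0.10). Bnip3l counts per 100 Hif1a counts were also lower in acetate libraries (8.65 to 12.5) than in untreated ones (14.0 to 22.3). For P4ha1 and Egln1 the acetate and untreated libraries overlapped in WT cells but not in KO cells. P4ha1 counts per 100 Hif1a counts were 6.13 to 7.99 in KO acetate and 12.9 to 14.7 in KO untreated libraries. Those of Egln1 were 9.69 to 14.2 in KO acetate and 21.6 to 30.9 in KO untreated libraries. Egln3 counts per 100 Hif1a counts were 17.0 ± 2.75 in KO acetate, 19.1 ± 5.44 in WT acetate, 27.1 ± 6.03 in KO untreated and 19.8 ± 2.05 in WT untreated libraries, and these groups overlapped. The ratios carry no test, and they depend on gene length and so compare groups, not genes. Because Hif1a itself rose with acetate in KO cells, any gene that rose less has a lower ratio there. No share over all genes stands beside these separations, so they do not set Bnip3 or Bnip3l apart from other genes.

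**Figure D4:**
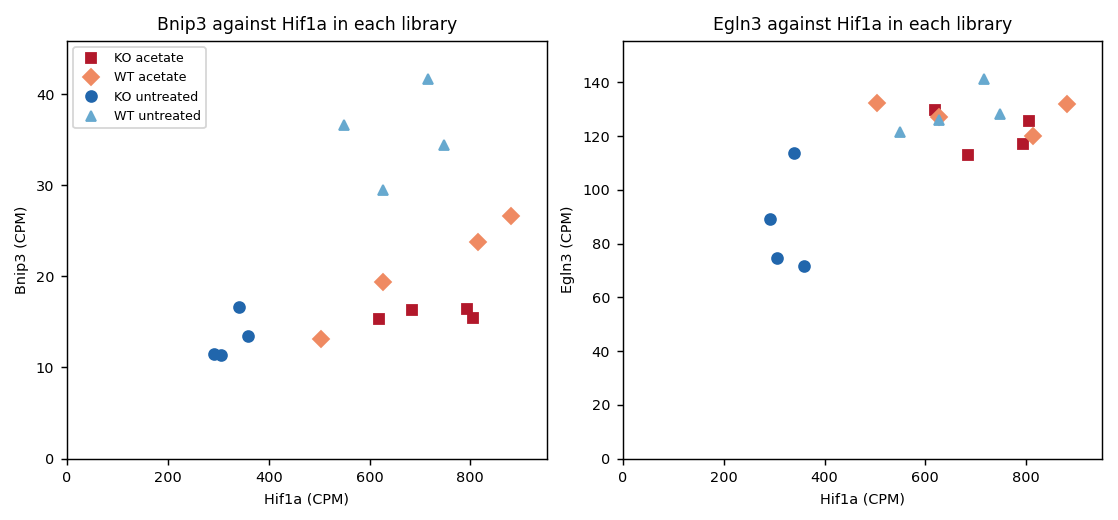
CPM of Bnip3 (left) and Egln3 (right) against CPM of Hif1a in each of the 16 libraries, marked by group. KO acetate libraries have Hif1a of 619.8 to 805.1 CPM with Bnip3 of 15.3 to 16.4 CPM, below the WT untreated libraries at 29.5 to 41.7 CPM, whereas their Egln3 of 113.0 to 129.8 CPM overlaps the WT untreated range.

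Bnip3l, also called Nix, encodes a related mitophagy receptor. Its libraries were at 69.7, 77.4, 65.8 and 71.5 CPM in KO acetate, 86.0, 85.7, 63.0 and 69.5 CPM in WT acetate, 66.9, 77.2, 65.9 and 65.0 in KO untreated and 93.9, 105.3, 97.3 and 104.6 CPM in WT untreated cells. As with Bnip3, the WT untreated libraries were above all others. Bnip3l was lower in KO untreated than in WT untreated cells (log2 fold change −0.54, SE 0.0902, adjusted p = 0.000143) and lower in WT acetate than in WT untreated cells (−0.40, SE 0.0899, adjusted p = 0.00552). In KO cells acetate gave a change of 0.05 (adjusted p = 0.703). The Bnip3l interaction of 0.45 (SE 0.127, adjusted p = 0.0286) was lost without KO acetate 2, WT acetate 4, KO untreated 3 or 4, or WT untreated 2 or 4 (0.40 to 0.43, adjusted p = 0.0526 to 0.0616), and without the 4 high-share libraries (0.51, adjusted p = 0.0518). Without WT acetate libraries 3 and 4 it was 0.27 (adjusted p = 0.119), and the fall of Bnip3l in WT cells was −0.23 (adjusted p = 0.0752).

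P4ha1 encodes the catalytic subunit of collagen prolyl 4-hydroxylase, and it had the lowest coefficient of variation of the 10 genes in every group. It stood at 49.3, 53.5, 50.5 and 49.5 CPM in KO acetate, 59.7, 58.6, 59.7 and 59.3 CPM in WT acetate, 45.5, 46.2, 44.8 and 42.9 in KO untreated and 66.8, 66.3, 63.7 and 66.0 CPM in WT untreated libraries. No 2 of the 4 groups overlapped. It was lower in KO untreated than in WT untreated cells (log2 fold change −0.55, SE 0.0484, adjusted p = 2.3e-07). With acetate P4ha1 was higher in KO cells (0.18, SE 0.0485, adjusted p = 0.00624) and lower in WT cells (−0.15, SE 0.048, adjusted p = 0.0451), and the interaction was 0.32 (SE 0.0683, adjusted p = 0.00503). The difference between the genotypes with acetate was −0.23 (SE 0.0483, adjusted p = 0.0308). That −0.23 lost its call without KO acetate 1 or 3 or any 1 WT acetate library (−0.23 to −0.21, adjusted p = 0.0528 to 0.115), with only these 2 groups in the fit (adjusted p = 0.126), or with library totals (adjusted p = 0.081). The fall of P4ha1 in WT cells lost its call without KO acetate 3, KO untreated 1 or 3 or any 1 library of the 2 WT groups (−0.16 to −0.14), and was −0.10 (adjusted p = 0.346) with library totals as the only scaling.

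Vegfa, the gene of the angiogenic growth factor VEGF-A, did not follow Bnip3. Its libraries were at 30.3, 21.9, 20.7 and 17.1 CPM in KO acetate, 22.6, 20.3, 7.37 and 11.7 CPM in WT acetate, 26.3, 29.9, 23.3 and 16.1 in KO untreated and 12.3, 17.9, 14.5 and 16.1 CPM in WT untreated cells. The KO means lay above the WT means, at 23.9 ± 5.85 CPM in KO untreated and 15.2 ± 2.35 CPM in WT untreated cells, but the libraries overlapped. The log2 fold change was 0.65 (SE 0.309, adjusted p = 0.118). It passed with only these 2 groups in the fit (0.65, adjusted p = 0.0195) and without WT acetate 3 (0.65, adjusted p = 0.0494). It also passed without WT acetate 3 and 4 (0.65, adjusted p = 0.0225) and without WT acetate 1 and 2 (0.65, adjusted p = 0.0362). WT acetate libraries enter here only through the shared estimate of spread. KO acetate against WT untreated cells gave 0.56 (SE 0.309, adjusted p = 0.201). That difference passed with only those 2 groups in the fit (0.56, adjusted p = 0.0343). The acetate effects on Vegfa were −0.09 in KO cells (adjusted p = 0.844) and 0.03 in WT cells (adjusted p = 0.97), with an interaction of −0.12 (adjusted p = 0.902).

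Ankrd37, which encodes an ankyrin repeat protein induced in hypoxia, was the gene of the set with the fewest counts. It was at 2.48 to 3.9 CPM in KO acetate, 3.58 to 4.53 CPM in WT acetate, 3.69 to 5.52 CPM in KO untreated and 4.21 to 7.08 CPM in WT untreated libraries. Without acetate the genotypes overlapped (log2 fold change −0.34, adjusted p = 0.144), passing only without WT untreated 2 among the alternatives run (−0.48, adjusted p = 0.0446). KO acetate libraries were below all WT untreated ones (log2 fold change −0.83, SE 0.182, adjusted p = 0.00268). Acetate gave −0.49 in KO cells (SE 0.183, adjusted p = 0.0368) and −0.50 in WT cells (SE 0.179, adjusted p = 0.0666), with an interaction of 0.01 (SE 0.259, adjusted p = 0.987). The Ankrd37 call in KO cells was lost without KO acetate 1 or 3 or KO untreated 1, 3 or 4 (−0.52 to −0.37, adjusted p = 0.0531 to 0.128), and that in WT cells was gained without WT untreated 2 (−0.63, adjusted p = 0.0246) and in DESeq2 (−0.50, adjusted p = 0.0409). The call in KO cells was lost as well with library totals (−0.39, adjusted p = 0.087), with only the groups compared (−0.49, adjusted p = 0.054) and without the 4 high-share libraries (−0.59, adjusted p = 0.0553).

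WT acetate had the largest coefficient of variation of the 4 groups for Hif1a (24.4%), Bnip3 (28.5%), Bnip3l (15.3%) and Vegfa (46.3%), but the smallest for Egln3 (4.5%), P4ha1 (0.885%) and Ankrd37 (10.0%). In 7 of the 10 genes libraries 1 and 2 of this group stood apart from libraries 3 and 4. This split was noticed after seeing the data, and no share over all genes stands beside it. The count therefore does not set these genes apart from others. Hif1a was at 814.5 to 880.7 CPM in libraries 1 and 2 and at 503.9 to 627.5 CPM in libraries 3 and 4. Bnip3 (23.8 to 26.6 CPM against 13.1 to 19.4 CPM) and Vegfa (20.3 to 22.6 CPM against 7.37 to 11.7 CPM) were split in the same direction, as were Bnip3l and Arnt, while Vhl and Egln1 were split in the opposite one. The labels give no batch that separates these libraries. Without libraries 3 and 4 the Bnip3 change with acetate in WT cells was −0.50, and without libraries 1 and 2 it was −1.14, both past the threshold. KO acetate against WT acetate cells without libraries 1 and 2 gave a Vegfa difference of 1.25 (adjusted p = 0.0425). Without libraries 1 and 2 the Egln1 change with acetate in WT cells was −0.19 and missed the threshold (adjusted p = 0.137). Of those 7 genes, some were split by the same library numbers in other groups. In KO acetate, libraries 1 and 2 were above libraries 3 and 4 for Hif1a, Arnt and Vegfa, and below them for Vhl and Egln1. In KO untreated they were above for Hif1a, Bnip3, Bnip3l and Vegfa. In WT untreated they were above for Bnip3, and also for Vhl and Egln1, the reverse of WT acetate. The cause was not tested.

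Other parts of the HIF machinery were examined in a list of 12 genes, all tested. In KO untreated against WT untreated cells 1 was higher and 2 lower of the 12, a smaller share than the 36.6% called over all genes, with a median log2 difference of 0.01, as over all genes. Cul2, the scaffold of the VHL ligase, was the clearest, at 83.2 ± 2.84 CPM in KO untreated and 110.2 ± 2.99 CPM in WT untreated cells (log2 fold change −0.41, adjusted p = 7.39e-06). Acetate raised Cul2 in KO cells (0.42, adjusted p = 2.39e-06) to 111.1 ± 5.01 CPM, with an interaction of 0.37 (adjusted p = 0.00253). As with Hif1a, the 4 KO untreated libraries lay below all others. Egln2, another HIF prolyl hydroxylase gene, was at 26.4 ± 2.22 CPM in KO untreated and 35.1 ± 2.22 CPM in WT untreated cells (−0.41, adjusted p = 0.000202) and did not pass with acetate in KO cells (0.08, adjusted p = 0.368). Hif1an, which hydroxylates HIF1α at an asparagine and blocks its coactivators, was higher in KO untreated cells (0.20, adjusted p = 0.0198), a call lost without KO untreated 2 or 3 or WT untreated 2 (0.16 to 0.18).

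With acetate in KO cells 3 of the 12 were higher and 3 lower, 50.0% of the list beside 43.7% of all genes. Cited2, a HIF-induced inhibitor that competes with HIF1α for CBP and p300, stood at 60.8 ± 4.53 CPM in KO acetate and 40.9 ± 7.4 CPM in KO untreated cells (0.57, adjusted p = 0.000745), a call lost without the 4 high-share libraries (0.38, adjusted p = 0.0632). Crebbp, the gene of the coactivator CBP, fell (−0.45, adjusted p = 0.00473), as did Rbx1, the RING subunit of the VHL ligase (−0.43, adjusted p = 4.28e-05). Hif1an fell by 0.16 (adjusted p = 0.0489) and Epas1, the gene of HIF2α, rose at a level near 1 CPM (0.56, adjusted p = 0.0337). Both of these calls were lost without several single libraries: for Epas1 KO acetate 1 or 2 or any 1 KO untreated library (0.50 to 0.58), and for Hif1an KO acetate 1 or 2, any 1 WT acetate library, KO untreated 1, 2 or 3 or WT untreated 1, 3 or 4 (−0.16 to −0.13).

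In WT cells acetate gave 1 call in this list (8.33% beside 15.4% of all genes), Epas1 (0.68, adjusted p = 0.0252), with 1.67 ± 0.117 CPM in WT acetate, against 1.05 ± 0.151 CPM in WT untreated cells. The Epas1 call was lost without WT acetate 1, 2 or 3 or WT untreated 1 or 3 (0.61 to 0.67). The genotypes compared with acetate gave 0 of 12 calls in edgeR, with 2 higher and 4 lower at an unadjusted p under 0.05 and 3 lower in DESeq2. KO acetate against WT untreated cells gave calls for 41.7% of the list beside 26.4% of all genes: 1 higher, Cited2 (0.66, adjusted p = 0.000672), and 4 lower, Egln2 (−0.33), Rbx1 (−0.34), Elob (−0.41) and Ep300 (−0.26), of which Elob lost its call without KO acetate 3 (−0.35) and Ep300 without KO acetate 1, 2 or 4 or WT untreated 1, 2 or 3 (−0.27 to −0.20). Hif3a, Arnt2 and Eloc passed in none of the 6 comparisons.

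A second list held 34 further hypoxia targets, of which 31 were in the table and tested. In KO untreated against WT untreated cells 6 were higher and 7 lower, 41.9% of the list beside 36.6% of all genes, with a median log2 difference of −0.02. Calls in this longer list thus ran in both directions. Ak4, a mitochondrial adenylate kinase gene, resembled Bnip3. It stood at 20.1 ± 3.19 CPM in KO acetate, 21.6 ± 1.31 CPM in WT acetate, 12.9 ± 1.29 CPM in KO untreated and 34.2 ± 1.57 CPM in WT untreated cells. Ak4 was lower in KO than in WT cells without acetate (−1.41, adjusted p = 2.24e-08), higher with acetate in KO cells (0.64, adjusted p = 3.88e-05), lower with acetate in WT cells (−0.67, adjusted p = 0.000145) and had an interaction of 1.31 (adjusted p = 1.5e-05). Narf was lower in KO untreated cells (−0.55, adjusted p = 1.95e-05). The collagen lysyl hydroxylase gene Plod1 (0.67, adjusted p = 0.000117) and Angptl4, a lipoprotein lipase inhibitor (0.53, adjusted p = 0.000163), were higher there.

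With acetate in KO cells 9 of the 31 were higher and 9 lower, 58.1% of the list beside 43.7% of all genes, with a median of −0.13. Among the 9 higher were Ak4 (given above), Car12 (0.48, adjusted p = 0.000269) and Narf (0.27, adjusted p = 0.00628). The histone demethylase genes Kdm3a and Kdm4b fell with acetate in both genotypes. Kdm3a changed by −0.34 in KO cells (adjusted p = 0.000125) and by −0.47 in WT cells (adjusted p = 3.19e-05), with an interaction of 0.14 that missed the threshold (adjusted p = 0.307). Kdm4b changed by −0.50 in KO cells (adjusted p = 9.65e-05) and by −0.46 in WT cells (adjusted p = 0.00116), with an interaction of −0.04 (adjusted p = 0.862). Pgf, the placental growth factor gene, fell in KO cells (−1.65, adjusted p = 0.00012), to 0.639 ± 0.0851 CPM in KO acetate, against 2.02 ± 0.607 CPM in KO untreated cells. In WT cells acetate gave 1 higher and 4 lower calls of 31, 16.1% beside 15.4% of all genes, with a median of −0.10. Between KO acetate and WT acetate cells 0 of 31 were called in edgeR, with 4 higher and 2 lower at an unadjusted p under 0.05 and 1 higher in DESeq2. KO acetate against WT untreated cells gave 7 higher and 7 lower, 45.2% beside 26.4% of all genes, with Ak4 at −0.77 (adjusted p = 2.32e-05) and Rora, a Th17 transcription factor gene that HIF1 can induce, at 0.77 (adjusted p = 0.00161).

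**Figure D5:**
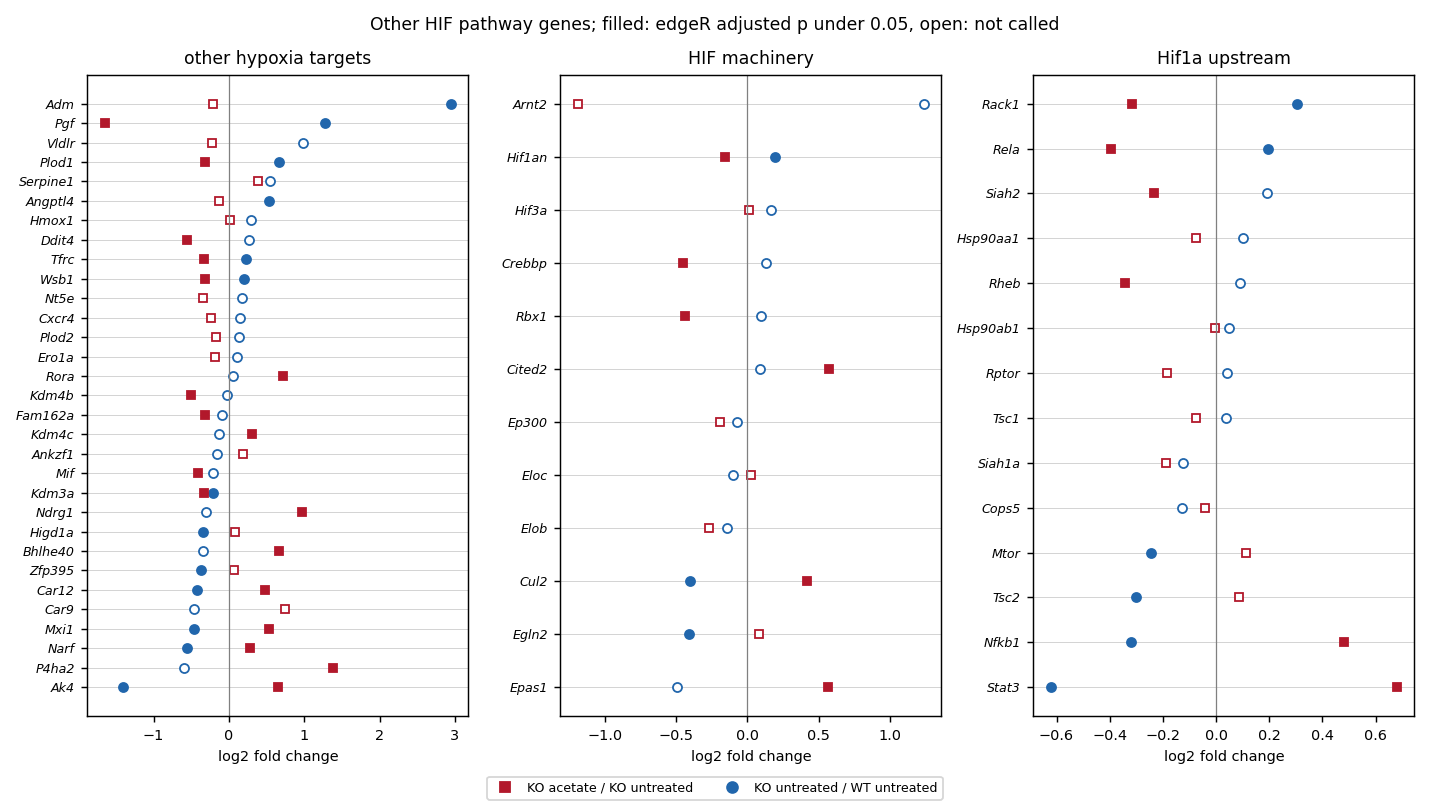
Log2 fold changes of KO acetate against KO untreated cells (red squares) and of KO untreated against WT untreated cells (blue circles) for 31 other hypoxia targets, 12 genes of the HIF machinery and 14 genes upstream of Hif1a, filled where the edgeR adjusted p was under 0.05. Both comparisons use the KO untreated libraries; Ak4, Cul2 and Stat3 lie left of 0 in blue and right of 0 in red.

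The 14 genes known to act on Hif1a transcription, translation or stability formed a further list. In KO untreated against WT untreated cells 2 were higher and 4 lower, 42.9% of the list beside 36.6% of all genes, with a median of 0.04. Stat3, the transcription factor downstream of IL-6 that can activate Hif1a, was at 244.2 ± 15.6 CPM in KO untreated and 375.9 ± 25.1 CPM in WT untreated cells (−0.62, adjusted p = 4.68e-05). With acetate in KO cells Stat3 was at 391.6 ± 42.1 CPM (0.68, adjusted p = 9.27e-06), and its interaction was 0.58 (adjusted p = 0.00749). Nfkb1, an NF-κB subunit gene, changed by −0.32 (adjusted p = 0.00133) without acetate and by 0.48 (adjusted p = 1.59e-05) with acetate in KO cells. The kinase gene Mtor was lower in KO untreated cells (−0.24, adjusted p = 0.00335), as was Tsc2 (−0.30, adjusted p = 0.00464). The 2 higher calls ran the other way. They were Rack1 (0.31, adjusted p = 0.0135) and Rela, the other principal NF-κB subunit gene (0.20, adjusted p = 0.044). With acetate in KO cells 2 of the 14 were higher and 4 lower, 42.9% beside 43.7% of all genes. Rela fell with acetate in KO cells (−0.39, adjusted p = 0.000277) and in WT cells (−0.31, adjusted p = 0.00807), the only call of the list in WT cells (7.14% beside 15.4% of all genes). The Rela call in WT cells was lost without WT acetate 1 and 2 (−0.23, adjusted p = 0.117). Rheb, the GTPase that activates mTOR, fell in KO cells (−0.34, adjusted p = 0.000128). Between KO acetate and WT acetate cells edgeR called 0 of 14, with 0 higher and 2 lower at an unadjusted p under 0.05 and 0 in DESeq2. KO acetate against WT untreated cells gave 0 higher and 3 lower, 21.4% beside 26.4% of all genes. At an unadjusted p under 0.05, 1 was higher and 6 lower, and DESeq2 called 0 higher and 5 lower.

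Of the Th17 genes with a known tie to HIF1, the cytokine genes Il17a and Il17f were higher with acetate in both genotypes. Il17a stood at 867.9 ± 258.1 CPM in KO acetate, 485.3 ± 154.4 CPM in WT acetate, 137.5 ± 27.7 CPM in KO untreated and 135.2 ± 44.4 CPM in WT untreated cells. Its acetate effects were 2.66 in KO cells (adjusted p = 1.71e-05) and 1.84 in WT cells (adjusted p = 0.00146), with an interaction of 0.82 that missed the threshold (adjusted p = 0.234). Il17f changed by 1.42 in KO cells (adjusted p = 0.000178) and by 0.92 in WT cells (adjusted p = 0.0139), the second of which was lost without the 4 high-share libraries (0.81, adjusted p = 0.0822). Il23r, the gene of the IL-23 receptor subunit, was at 24.4 ± 1.54 CPM in KO acetate, 28.8 ± 1.82 CPM in WT acetate, 7.82 ± 2.48 CPM in KO untreated and 27.3 ± 3.13 CPM in WT untreated cells, with an interaction of 1.56 (adjusted p = 0.000115). Like Hif1a, Il23r was lowest in the 4 KO untreated libraries.

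The genes whose levels ran most closely with Hif1a and with Bnip3 were listed by Pearson's r of log2 CPM over the 16 libraries, as a description. For Hif1a they were Crem (r = 0.992), Crybg1 (0.99), Gpr65 (0.987), Fosl2 (0.986) and Nr4a2 (0.983). Crem, for example, stood at 82.8 ± 21.5 CPM in KO acetate, 79.3 ± 38.5 CPM in WT acetate, 20.3 ± 3.76 CPM in KO untreated and 73.1 ± 19.1 CPM in WT untreated cells. For Bnip3 the closest were Unc13a (r = 0.906), Gpr171 (0.901), Oxct1 (0.896), Cdc25b (0.895) and Uap1 (0.894), all with their highest mean in WT untreated cells. The points share libraries and group differences, so the values of r carry no p. None of the 5 nearest to Hif1a was among the 5 nearest to Bnip3, but lists this short can differ even between similar profiles.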

How the data were processed

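RNA was extracted with a spin-column kit and made into stranded poly(A) libraries, per the labels' protocols. The authors deposited 1 table of estimated counts per gene, in whole numbers, for 16 libraries. The submitters' processing notes name Salmon, DESeq and DESeq2; neither they nor the labels give versions, a build or an annotation. Gene symbols were matched for 15221 of 15571 Ensembl IDs.

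Counts were filtered with filterByExpr, scaled by TMM and fitted with edgeR 4.0.16 (robust quasi-likelihood test) in R 4.3.3, with all 16 libraries in 1 fit and 6 contrasts, so the groups share 1 estimate of spread. P-values were Benjamini-Hochberg adjusted over 14985 genes. CPM use TMM library sizes, and a standard error is the log2 fold change divided by the root of the F statistic. DESeq2 1.42.0, other scalings and filters, a replicate block and libraries left out were alternatives. The procedure was tested on simulated data. The same-numbered libraries were checked for pairing.

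The 10 genes and the other lists were chosen with earlier results of these data known. Outside the lists, the 5 genes with the highest r to Hif1a and to Bnip3 were named; within a list, up to 4 called genes with the lowest adjusted p in a comparison, and any gene of the HIF machinery. A gene that this rule names is not reported here. Promoter windows are RefSeq's (GRCm38.p6), searched on both strands for the 3 motifs named in the text, of which the E-box overlaps the first.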

Additional observations from a re-analysis of the deposited data

Results flagged for a closer look

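Among 42 genes named, the response to acetate differed between KO and WT cells (KO minus WT) in the edgeR test of that difference for 15. Of the HIF1 genes these were Hif1a (1.07 on the log2 scale), Bnip3 (1.04), Egln3 (0.49), Bnip3l (0.45) and P4ha1 (0.32). Of the other genes they were Il23r (1.56), Ak4 (1.31), Stat3 (0.58), Narf (0.43), Nfkb1 (0.42), Car12 (0.41) and Cul2 (0.37), with negative differences for Plod1 (−0.75), Rack1 (−0.55) and Rbx1 (−0.32). The calls of Egln3, Bnip3l, Rbx1 and Car12 were lost without 1 of several single libraries, and those of Narf (0.28), Nfkb1 (0.34) and Rack1 (−0.55) without the 4 libraries high in the unnamed gene.

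In 10 of 168 groups of 4 libraries, 1 library stood far from the other three, which chance gives in about 1 in 20 groups. Of the HIF1 genes this held for Bnip3l, where 1 KO untreated library had 77.2 CPM and the others 65.0 to 66.9 CPM. High single libraries were found for Angptl4 in KO acetate (12.4 CPM), Il23r in KO acetate (26.7 CPM) and KO untreated (11.5 CPM), Rela in KO untreated (130.1 CPM) and Kdm3a in WT untreated (65.9 CPM). Low ones were found for Rela in KO acetate (80.7 CPM), Narf in WT acetate (21.8 CPM), and Cited2 (34.5 CPM) and Hif3a (3.37 CPM) in WT untreated.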

How the results depend on the processing

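Of 1550 values of the 10 genes under alternatives, 1410 kept direction and side of the threshold, 82 lost a call, 13 gained one and 45 changed sign. Those 45 passed neither as reported nor under the alternative. For KO acetate against WT acetate, 150 genes were called, and 78 with library totals, 751 with DESeq2, 16 with only the groups compared, 408 with the replicate block, 535 without the 4 high-share libraries and 234 when the first 2 replicate numbers were set against the last 2 as a covariate. Without WT acetate 3 and 4 it was 11, and without 1 and 2 it was 499. Of the 10 genes that comparison called 1, against 0 with library totals, with only the groups compared and without WT acetate 3 and 4, and 2 without 1 and 2. Acetate in WT cells called 4, against 2 with library totals and 2 without either pair, and of all genes 2315, against 1121 without WT acetate 1 and 2. Acetate in KO cells called 5, against 3 with only the groups compared and 3 without the high-share libraries. Without those libraries KO untreated against WT untreated called 3361 genes in place of 5481, and the interaction 1010 in place of 1785. Without WT acetate 3 and 4 the interaction called 3 of the 10 in place of 5. The cause was not tested. That covariate and the 2 settings without pairs of WT acetate libraries were chosen after seeing the data.

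With 1 library left out, calls of all genes and of the 10 genes ranged over 4491 to 5587 and 6 to 8 (KO untreated against WT untreated), 21 to 661 and 0 to 1 (KO acetate against WT acetate), 5817 to 6652 and 3 to 6 (KO acetate against KO untreated), 1569 to 2370 and 3 to 4 (WT acetate against WT untreated), 2944 to 4097 and 6 (KO acetate against WT untreated), and 1277 to 1999 and 3 to 5 (interaction).

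Same-numbered libraries did not deviate together in most pairs (r −0.084 to 0.229, over 0.1 in 9 of 24), so the numbers were not taken to pair the samples. As a hint from the data, the same number gave the highest r in 12 of 24 pairs, and in all 4 of KO acetate with KO untreated (0.0862 to 0.165, 3 over 0.1). The replicate block called 408 genes in KO acetate against WT acetate, in place of 150, and 6851 in KO acetate against KO untreated, in place of 6550. Ankrd37, with 70 to 206 counts per library, is limited most by depth.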
